A study of Mus musculus with 12 samples.

Results

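The genes examined were H2-Aa, H2-Ab1, H2-Eb1, H2-DMa, H2-DMb1, Cd74 and Ciita, the core of major histocompatibility complex (MHC) class II antigen presentation in the mouse. They were chosen by gene symbol and are 7 of the 23284 genes counted. All 7 passed the filter on low counts and were tested. Polyadenylated RNA had been sequenced from the fibrocartilage on the mandibular condyle, the lower bearing surface of the jaw joint, without sorting of its cells. Female C57BL/6 mice, wild type (WT) or without estrogen receptor alpha (ERalphaKO), lost their ovaries at 16 weeks of age and were sampled at 17 weeks. For the 1 week between they carried a pellet of placebo or of 0.01 mg 17β-estradiol (E2) made to release over 60 days. The libraries numbered 2 for WT under placebo, 3 for WT under E2, 4 for ERalphaKO under placebo and 3 for ERalphaKO under E2. Every group, controls included, was ovariectomized, so no group had cycling ovarian hormones. How the ERalphaKO allele was made, and whether replicates were separate animals or pools, is not given in the sources used here. P-values therefore cover the spread between these libraries, which may be technical.

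Libraries held 9696434 to 28750636 counts. Levels are given as CPM, a gene's counts relative to the scaled library size. Esr1, the targeted gene, lay at 8.52 to 17.5 CPM in the 5 WT libraries and at 3.65 to 5.78 CPM in the 7 ERalphaKO libraries, without overlap. Whether the remaining reads fall in the deleted stretch is not known. Markers of the tissue were present in every library, with Col1a1 at 27005 to 43587 CPM, Acan at 620.4 to 1962 CPM and Prg4 at 66.0 to 390.3 CPM. In 2 libraries class II levels stood apart from the rest, WT under E2 replicate 3 and ERalphaKO under placebo replicate 3. Results that rest on them are given with and without them.

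Class II molecules are pairs of an alpha and a beta chain that show peptides from the endosomes to CD4+ T cells. They are made steadily by B cells, dendritic cells and many macrophages, and other cells can be induced to make them by interferon gamma. Ciita encodes the master switch of the class II genes, a protein that does not bind DNA itself but docks on RFX, NF-Y and CREB family factors at a conserved stretch of their promoters. Cd74, the invariant chain, escorts new class II molecules to the endosomes, and the DM molecule, made of H2-DMa and a DM beta chain, exchanges its remnant there for other peptides.

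The promoters are shown because the genes varied together from library to library, to differing degrees. Whether the promoter letters bear on this was not tested. RefSeq's table held a promoter for 4 of the 7 members (build GRCm38.p6, 250 bases before to 50 bases after the annotated start): H2-Aa, H2-Eb1, H2-DMa and H2-DMb1. The lines give 90 bases, from 110 to 21 bases before the start, of 3 of them and of H2-Ob, a class II gene of B cells whose values are given further on. They lie at chr17:34287844-34287933 on the minus strand for H2-Aa, and on the plus strand at chr17:34305757-34305846 for H2-Eb1, chr17:34153081-34153170 for H2-DMb1 and chr17:34238795-34238884 for H2-Ob. Capitals mark matches to the motifs searched, which were chosen after the sequences had been seen.
H2-Aa: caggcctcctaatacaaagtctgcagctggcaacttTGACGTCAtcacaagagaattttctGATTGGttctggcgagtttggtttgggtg
H2-Eb1: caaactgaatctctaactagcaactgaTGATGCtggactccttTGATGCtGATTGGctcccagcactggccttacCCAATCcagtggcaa
H2-DMb1: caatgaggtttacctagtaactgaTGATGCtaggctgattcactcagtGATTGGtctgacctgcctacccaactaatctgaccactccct
H2-Ob: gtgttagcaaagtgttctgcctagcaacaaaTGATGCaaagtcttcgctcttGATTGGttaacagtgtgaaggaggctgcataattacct

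Both strands were searched for GATTGG, the letters of the Y box that NF-Y binds (CCAATC on the other strand), and for TGATGC or TGACGTCA, letters of the X box region that RFX and CREB family factors bind. GATTGG occurred in 16.1% of the 32851 promoters of the table and either of the X letters in 12.6%. The X letters followed by GATTGG within 30 bases on 1 strand occurred in 0.280%, which is 92 promoters of 87 gene symbols among 27025. In H2-Aa the letters TGACGTCA began 74 bases before the start, with 17 bases between them and GATTGG. H2-Eb1 held TGATGC at 83 and again at 67 bases before the start, with 17 bases and 1 base before its GATTGG, and a reverse match at 35 bases that overlaps none of the others. H2-DMb1 held the pair from 86 bases before the start with 18 bases between. H2-Ob held it from 79 bases with 15 bases between. At the starts searched, the pair was held by 3 of these 4 members, and by 3 of 4 other class II genes (H2-Ob, H2-DMb2 and H2-Eb2). H2-DMa had GATTGG alone at 1 of its annotated starts, 199 bases before it, and H2-Oa had GATTGG alone at 44 bases. The H2-DMa stretches searched were chr17:34122582-34122881 and chr17:34125268-34125567, in a gene that runs on to 34139101. Whether either is the start mainly used was not determined, so H2-DMa may hold the pair at a start that was not searched. The letters were chosen after these sequences had been seen, so the class II counts are a description and no test against the share over all promoters. A match describes letters only, and no binding was measured.

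Per length, Cd74 was the most abundant of the 7 transcripts. Its mean over the 12 libraries was 106 CPM per kilobase of its principal transcript (GRCm38 annotation), ahead of 64.6 for H2-Aa, 62.4 for H2-Ab1, 28.9 for H2-Eb1, 16.6 for H2-DMb1 and 4.48 for H2-DMa. Ciita, at 0.545 CPM per kilobase, was the rarest, with 29 to 138 counts in a library. The gene bodies lie on chromosome 17 except for Cd74, on chromosome 18 (60803848 to 60812652), and Ciita, on chromosome 16 (10480059 to 10528418). In a bulk tissue, fewer class II cells and less class II RNA per cell cannot be told apart, and this holds for every level that follows.

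H2-Aa and H2-Ab1 encode the alpha and beta chains of I-A, the class II molecule that C57BL/6 mice display. H2-Aa (chr17:34282744-34287823) measured 50.8 and 35.6 CPM in the WT placebo libraries. Under E2 the WT libraries held 64.0, 27.7 and 188 CPM. ERalphaKO libraries held 59.9, 65.9, 124 and 66.6 CPM under placebo, and 84.7, 42.2 and 65.0 CPM under E2. The WT E2 group therefore contained both the lowest and the highest H2-Aa library of the study, 6.78-fold apart, and overlapped each of the other groups. H2-Ab1 (chr17:34257689-34269419) followed the same libraries over a narrower range, 3.64-fold. It stood at 53.4 and 55.4 CPM in WT placebo, 73.2, 43.3 and 158 CPM in WT E2, 62.8, 74.0, 116 and 71.9 CPM in ERalphaKO placebo, and 75.3, 55.5 and 69.7 CPM in ERalphaKO E2. H2-Eb1 (chr17:34305867-34316674) encodes the beta chain of I-E, the second class II molecule, which C57BL/6 mice lack on the cell surface because the alpha chain gene is defective. Its transcript was nonetheless present in every library. H2-Eb1 held 34.1 and 25.1 CPM in WT placebo, 41.3, 18.8 and 134 CPM in WT E2, 39.0, 39.2, 85.8 and 43.4 CPM in ERalphaKO placebo, and 49.8, 24.2 and 43.1 CPM in ERalphaKO E2. Counts of H2-Eb1 per count of H2-Aa stayed between 0.574 and 0.714 in all 12 libraries, while H2-Aa itself spanned 6.78-fold. The alpha chain gene, listed as H2-Ea-ps, had 1 count in the whole series.

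Cd74 was likewise highest in WT E2 replicate 3, then ERalphaKO placebo replicate 3, and lowest in WT E2 replicate 2. It measured 111 and 77.5 CPM in WT placebo, 149, 66.1 and 410.2 CPM in WT E2, 142, 135, 226 and 126 CPM in ERalphaKO placebo, and 151, 80.2 and 123 CPM in ERalphaKO E2. The 4 ERalphaKO placebo libraries lay above both WT placebo libraries, and all other pairs of groups overlapped.

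H2-DMa (chr17:34119541-34139101), the alpha chain of DM, measured 5.16 and 4.73 CPM in WT placebo, 7.28, 4.33 and 17.5 CPM in WT E2, 8.62, 6.13, 11.7 and 5.95 CPM in ERalphaKO placebo, and 6.87, 5.78 and 5.11 CPM in ERalphaKO E2. It shares 360 of its 3448 annotated exon bases with Brd2 on the opposite strand. Brd2 averaged 327 CPM and the strand of the reads is not stated, so part of the H2-DMa count may belong to Brd2. H2-DMb1 (chr17:34153072-34160230), a beta chain of DM, was the steadiest of the 7, with a 1.70-fold range. It held 22.6 and 22.4 CPM in WT placebo, 22.5, 19.9 and 33.7 CPM in WT E2, 20.4, 22.7, 26.4 and 22.2 CPM in ERalphaKO placebo, and 23.4, 23.2 and 20.2 CPM in ERalphaKO E2. Without WT E2 replicate 3 and ERalphaKO placebo replicate 3, its libraries lay between 19.9 and 23.4 CPM. Counts of Cd74 per count of H2-DMb1 ran from 3.33 to 12.2. H2-DMb1 and H2-DMb2 are close copies, and how reads matching both were counted is not known.

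Ciita measured 2.82 and 1.61 CPM in WT placebo, 2.21, 1.55 and 5.07 CPM in WT E2, 3.41, 4.78, 5.35 and 3.62 CPM in ERalphaKO placebo, and 3.43, 3.05 and 2.35 CPM in ERalphaKO E2. All 4 ERalphaKO placebo libraries exceeded the 2 WT placebo libraries. Its highest library was ERalphaKO placebo replicate 3, just ahead of WT E2 replicate 3, the reverse of the order in the other 6 genes. Ciita shares 329 of 9535 exon bases with Dexi on the opposite strand, at a mean of 23.6 CPM, so its low count carries the same doubt as that of H2-DMa.

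**Figure D1:**
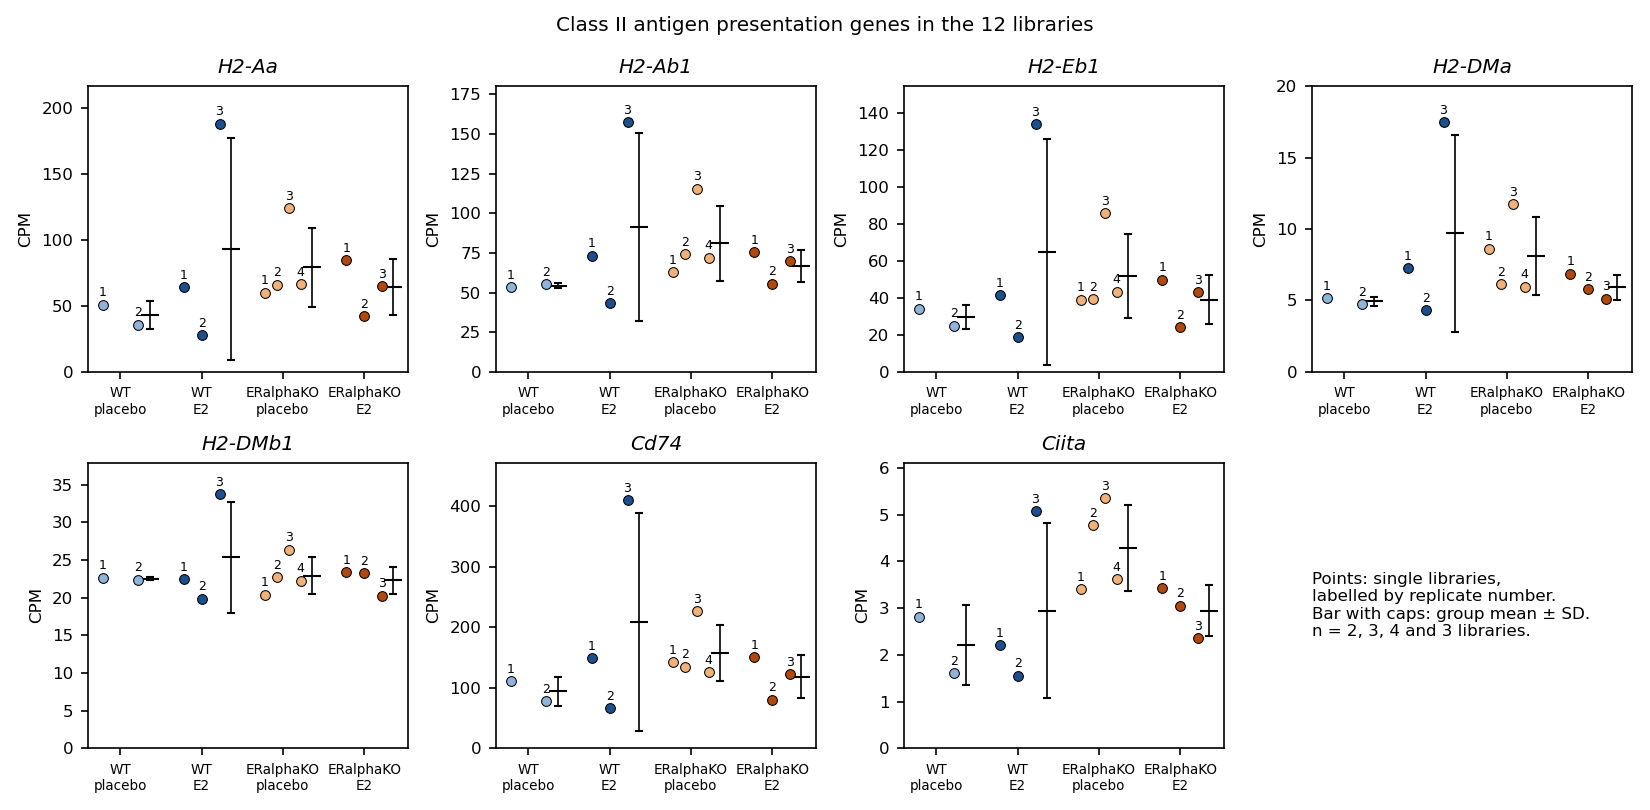
CPM of each of the 7 class II genes in each of the 12 libraries, one panel per gene, with points for libraries and a capped bar for each group's mean ± SD. WT E2 replicate 3 and ERalphaKO placebo replicate 3 are the 2 highest libraries in every panel, and H2-DMb1 varies least, by 1.70-fold.

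The mean levels of H2-Aa, H2-Ab1, H2-Eb1, H2-DMa and Cd74 had 1 order: WT placebo, ERalphaKO E2, ERalphaKO placebo, then WT E2. For Cd74 these means were 94.2 ± 23.6 (SD, n = 2), 118 ± 35.7 (SD, n = 3), 157 ± 46.3 (SD, n = 4) and 209 ± 179 CPM (SD, n = 3). The WT E2 mean was the highest and the SD there came close to it in size. In Ciita the order was WT placebo at 2.21 ± 0.851 (SD, n = 2), WT E2 at 2.94 ± 1.87 (SD, n = 3), ERalphaKO E2 at 2.94 ± 0.548 (SD, n = 3) and ERalphaKO placebo at 4.29 ± 0.927 CPM (SD, n = 4). In H2-DMb1 all 4 means lay between 22.3 and 25.3 CPM. Neighbouring groups in these orders overlapped in every gene, with the exception of H2-Ab1, whose WT placebo libraries lay below those of ERalphaKO E2.

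Across the 12 libraries, log2 CPM of H2-Aa, H2-Ab1, H2-Eb1 and Cd74 correlated with Pearson's r of 0.96 to 0.99 over their 6 pairs. Without WT E2 replicate 3 and ERalphaKO placebo replicate 3, leaving 10 libraries, the range was 0.88 to 0.98. H2-DMa correlated with these 4 genes at 0.90 to 0.94, and at 0.63 to 0.78 in the 10 libraries. For Ciita with the 5 genes other than H2-DMb1 the values were 0.74 to 0.82 and 0.59 to 0.72. H2-DMb1 stood apart here too, with r of 0.63 to 0.86 against the other 6 genes over all libraries but 0.19 to 0.41 over the 10. H2-DMb1 shares GATTGG with H2-Aa and H2-Eb1 in the stretches shown above, and TGATGC with H2-Eb1. These values describe the libraries, since the genes share depth, scaling and cell makeup.

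For WT mice the question was whether E2 changed class II transcripts. The fitted log2 fold change was positive in 7 of 7 genes (49.1% of all 14832 genes tested) but none passed the threshold of adjusted p under 0.05, which 0.458% of genes passed. Cd74 changed by 1.15 ± 0.61 on the log2 scale (SE, edgeR adjusted p = 0.673), H2-Eb1 by 1.13 ± 0.69 (adjusted p = 0.743) and H2-Aa by 1.11 ± 0.66 (adjusted p = 0.729). H2-DMa changed by 0.97 ± 0.50 (edgeR adjusted p = 0.657), H2-Ab1 by 0.75 ± 0.44 (adjusted p = 0.727), Ciita by 0.42 ± 0.46 (adjusted p = 0.881) and H2-DMb1 by 0.17 ± 0.20 (adjusted p = 0.885). The median was 0.97, against -0.0043 for all genes. No gene had an unadjusted edgeR p under 0.05 (8.14% of all genes did), and none passed in DESeq2 (1.7% of genes did), where the lowest adjusted p was 0.577. WT E2 replicate 3 carried the size of the change: without it the median over the 7 genes was 0.088, with Cd74 at 0.20, H2-Aa at 0.088, H2-Eb1 at 0.025, H2-DMb1 at -0.088 and Ciita at -0.22.

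In ERalphaKO mice E2 left 7 of 7 fitted changes negative (50.0% of all genes were), and again none passed. No gene of the 14832 passed in this comparison (0.0%). Values ran from -0.55 ± 0.39 for Ciita (SE, edgeR adjusted p = 0.966) to -0.04 ± 0.16 for H2-DMb1 (adjusted p = 1.0), with Cd74 at -0.41 ± 0.50 (adjusted p = 0.997). The median was -0.40, against 0.0 for all genes, and -0.055 without ERalphaKO placebo replicate 3. No member had an unadjusted edgeR p under 0.05, which 5.7% of all genes had, and none passed in DESeq2, where 0.0337% of genes did. Groups overlapped in all 7 genes. Over all genes, 2.58% were higher and 3.09% lower without overlap. Without that replicate H2-Aa stood at 0.0014 and H2-DMb1 at 0.030. Between genotypes the E2 change differed by -1.56 ± 0.78 in Cd74 (edgeR adjusted p = 0.755) and -1.53 ± 0.89 in H2-Eb1 (adjusted p = 0.790). This difference had a median of -1.41 over the 7 genes, against -0.016 over all genes, and was negative in 7 of 7 genes (52.8% of all genes). It passed in none of the 7 in edgeR (0.0539% of all genes did) or DESeq2 (0.688%), nor was any unadjusted p under 0.05 (6.78% of all genes). Without WT E2 replicate 3 its median was -0.39.

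Under placebo, ERalphaKO was compared with WT in the absence of ovarian and pellet estrogen. In this comparison 6 of the 7 genes, all but H2-DMb1, were higher in every ERalphaKO library than in both WT libraries. Over all genes tested, 10.5% separated in that direction. Ciita had the largest fitted change, 0.97 ± 0.45 on the log2 scale (SE, edgeR adjusted p = 0.570), or 1.95-fold. H2-Aa changed by 0.88 ± 0.62 (edgeR adjusted p = 0.728), H2-Eb1 by 0.81 ± 0.66 (adjusted p = 0.763), Cd74 by 0.74 ± 0.58 (adjusted p = 0.754) and H2-DMa by 0.71 ± 0.48 (adjusted p = 0.706). H2-Ab1 changed by 0.58 ± 0.42 (edgeR adjusted p = 0.734) and H2-DMb1 by 0.03 ± 0.19 (adjusted p = 0.982). None passed the test, in a comparison where 0.0135% of genes did. The median was 0.74, against 0.010 for all genes, and the fitted change was positive in 7 of 7 genes and in 52.1% of all genes. No unadjusted edgeR p was under 0.05 (8.93% of all genes), and none passed in DESeq2 (1.01% of genes did), where the lowest adjusted p was 0.457. Without ERalphaKO placebo replicate 3 the median was 0.48. WT placebo has 2 libraries, and both enter every one of these values.

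In the authors' deposited table for this contrast none of the 7 passed at an adjusted p of 0.05 (1.82% of genes did). The authors' unadjusted p was 0.0043 for H2-Aa, 0.0044 for Cd74, 0.0085 for Ciita and 0.0157 for H2-Eb1. It was 0.0165 for H2-Ab1, 0.0339 for H2-DMa and 0.823 for H2-DMb1. The share of all genes with a low unadjusted p was not computed for that table. That table gave H2-Aa a log2 fold change of 0.81 with a standard error of 0.28 and an adjusted p of 0.147. The standard error in edgeR was 0.62, and the median over the 7 genes in the edgeR fit was 0.48 where that over all genes was 0.17. The edgeR errors came from 1 fit of all 12 libraries, each derived from the fold change and its F statistic. They may therefore not be the same measure as the authors' standard error. Across the authors' 6 deposited tables no class II member passed, and the lowest adjusted p was this 0.147. The share of genes passing in the authors' other deposited tables was 1.75% for WT E2 against WT placebo, 0.0494% for ERalphaKO E2 against ERalphaKO placebo and 3.75% for ERalphaKO E2 against WT E2. It was 0.563% for ERalphaKO E2 against WT placebo and 6.34% for ERalphaKO placebo against WT E2, a contrast in which the authors' deposited table gives no p for H2-Aa, H2-Eb1 and Cd74.

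Under E2, ERalphaKO minus WT was negative in 7 of 7 genes (50.8% of all genes), with a median of -0.54 against -0.0031 over all genes. Cd74 stood at -0.82 ± 0.53 (SE, edgeR adjusted p = 0.617), H2-Eb1 at -0.72 ± 0.60 (adjusted p = 0.724), H2-DMa at -0.71 ± 0.44 (adjusted p = 0.600), H2-Aa at -0.54 ± 0.57 (adjusted p = 0.802) and H2-Ab1 at -0.45 ± 0.39 (adjusted p = 0.734). H2-DMb1 stood at -0.19 ± 0.18 and Ciita at -0.001 ± 0.41. None passed where 1.1% of genes did, none had an unadjusted edgeR p under 0.05 (11.5% of all genes) and none passed in DESeq2 (3.35% of genes did), with a lowest adjusted p of 0.588. The groups overlapped in all 7 genes, while 6.97% of all genes were higher and 8.94% lower without overlap. Without WT E2 replicate 3 all 7 turned positive, from 0.029 in H2-DMa to 0.64 in Ciita, with H2-Aa at 0.49 and Cd74 at 0.13. The direction under E2 thus rested on 1 library. The 4 comparisons share groups of libraries, so their values are not independent of each other.

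**Figure D2:**
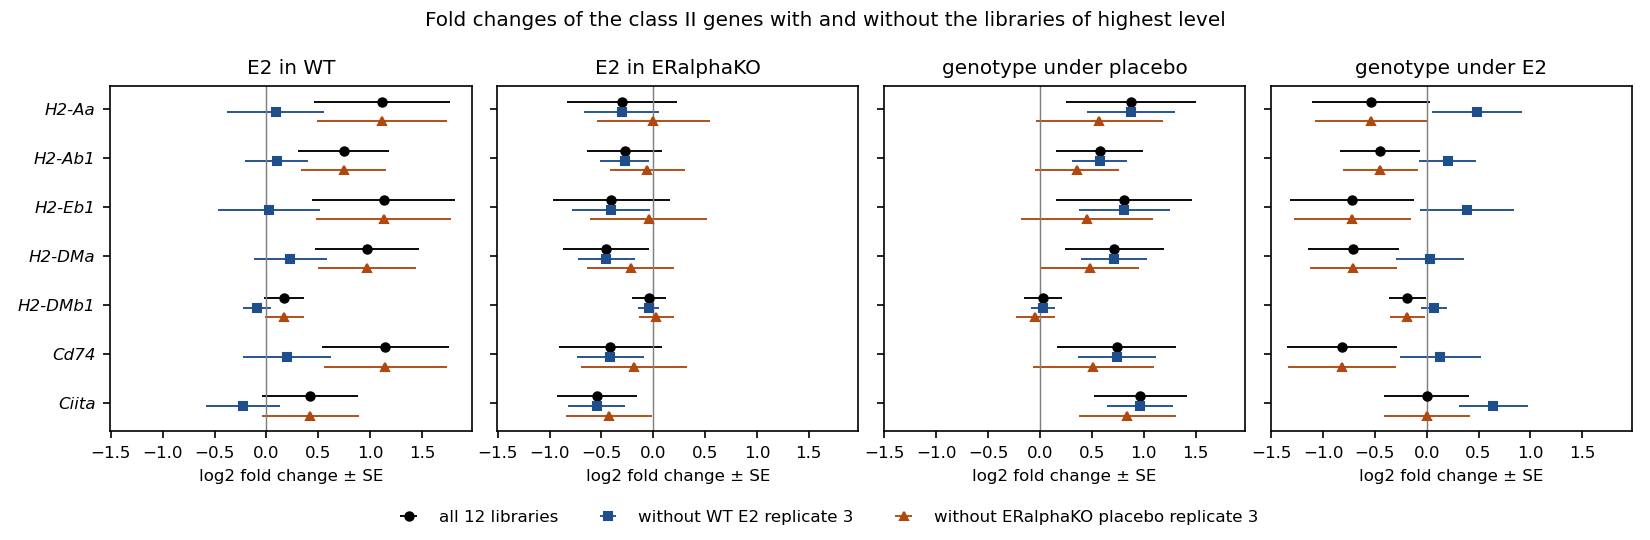
Fitted log2 fold change with its standard error for each of the 7 class II genes in the 4 comparisons of groups, from all 12 libraries (circles), without WT E2 replicate 3 (squares) and without ERalphaKO placebo replicate 3 (triangles). No value passed the edgeR test, and all 7 genotype values under E2 turn positive without WT E2 replicate 3.

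Genes on the route to class II expression were read next, from lists. In the interferon gamma route, 7 of 8 genes were tested and 1 passed, in 1 comparison. Jak1, a kinase of the interferon receptors, was lower in ERalphaKO than in WT under E2, by 0.52 ± 0.10 on the log2 scale (edgeR adjusted p = 0.0363). In that comparison 1.1% of all genes passed. The WT E2 libraries held 314, 279 and 317 CPM and the ERalphaKO E2 libraries 241, 181 and 209.9 CPM, without overlap. Under placebo Jak1 held 199 and 197 CPM in WT and 195 to 206 CPM in ERalphaKO. For E2 in WT the lowest edgeR adjusted p of the list was 0.0505. Of 12 fits that each left out 1 library, the call remained in 3, those without WT E2 replicate 2, ERalphaKO placebo replicate 3 or ERalphaKO E2 replicate 1, with adjusted p from 0.0242 to 0.150 over the 12. It was also lost with the replicate number as a block (edgeR adjusted p = 0.110) and with the compared groups alone (0.145). Ifng itself, the ligand, was at or near 0 (0 to 0.12 CPM) and was not tested. Of the 7 promoter factors all were tested and none passed in any comparison. At most 2 had an unadjusted edgeR p under 0.05 in a comparison (5.7% to 11.5% of all genes did), and DESeq2 called none. Creb1 and Nfya, the most expressed of them, averaged 81.2 and 65.8 CPM.

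Endolysosomal proteases and helpers, which cut antigen and Cd74, gave no call among 9 genes tested in edgeR. Unadjusted edgeR p was under 0.05 for 2 of the 9 for E2 in WT and for 2 under E2 between genotypes, and DESeq2 called 2 in each of these comparisons. Over all genes the unadjusted shares were 8.14% and 11.5%, and DESeq2 called 1.7% and 3.35%. Ctsb, a cathepsin, averaged 1424 CPM. Cst3, the cathepsin inhibitor cystatin C, held 647 and 631 CPM in WT placebo, and 1245, 833 and 1464 CPM in WT E2, against 551 to 705 CPM over the 7 ERalphaKO libraries. Its E2 change in WT was 0.89 ± 0.20 (edgeR adjusted p = 0.129) and its genotype difference under E2 -0.82 ± 0.18 (adjusted p = 0.0588). Ctss, the cathepsin that trims Cd74 in many antigen-presenting cells, was chosen after its values were seen. It ranged from 41.9 CPM in WT placebo replicate 2 to 174 CPM in WT E2 replicate 3, the library that is also highest in Cd74. Among 3 genes that remove or stabilise surface class II, none passed in any comparison and none had an unadjusted edgeR p under 0.05 or a DESeq2 call. The ubiquitin ligase March8 averaged 81.0 CPM and Cd83, which opposes it, 18.7 CPM.

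Of 6 costimulatory genes 5 were tested and 1 passed, in 1 comparison where 1.1% of all genes did. Cd86, a ligand of CD28 on T cells, was lower in ERalphaKO than in WT under E2, by 1.52 ± 0.29 on the log2 scale (edgeR adjusted p = 0.0370). WT E2 libraries held 11.7, 7.48 and 14.3 CPM and ERalphaKO E2 libraries 4.10, 2.73 and 4.75 CPM, without overlap. WT placebo held 4.81 and 4.03 CPM, and the E2 change in WT was 1.34 ± 0.33 (edgeR adjusted p = 0.172). The Cd86 call remained in 3 of 12 such fits, those without WT E2 replicate 2 or ERalphaKO placebo replicate 1 or 3, with adjusted p from 0.0148 to 0.137 over the 12, and not with the replicate block (edgeR adjusted p = 0.0502) or the compared groups alone (0.102). All 3 WT E2 libraries exceeded every other library in Cd86, and ERalphaKO placebo replicate 3, high in Cd74, held 5.27 CPM.

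In MHC class I presentation, 14 genes were tested and 1 passed, in 1 comparison where 1.1% of all genes did. Nlrc5, the class I counterpart of Ciita, was lower in ERalphaKO than in WT under E2, by 1.59 ± 0.28 on the log2 scale (edgeR adjusted p = 0.0249). Its libraries held 11.5 and 10.2 CPM in WT placebo, 32.9, 20.0 and 50.5 CPM in WT E2, 15.6, 14.3, 18.3 and 14.5 CPM in ERalphaKO placebo, and 13.4, 11.3 and 9.56 CPM in ERalphaKO E2. Every WT E2 library exceeded every other library of the study. The E2 change in WT was 1.67 ± 0.32 (edgeR adjusted p = 0.0587), beside 0.42 ± 0.46 for Ciita in the same comparison. Leaving out 1 library at a time kept the Nlrc5 call in 8 of 12 fits, and it was lost without WT E2 replicate 1 or any of the 3 ERalphaKO E2 libraries (adjusted p up to 0.124). The replicate block and the compared groups alone ended it too, with edgeR adjusted p of 0.0664 and 0.111. Over the 14 class I genes, the fitted E2 change in WT was positive in 13, with a median of 0.45, and the genotype difference under E2 was negative in all 14, with a median of -0.36. Over all genes, 49.1% were positive in the first comparison and 50.8% negative in the second. Without WT E2 replicate 3 the medians were 0.079, with 11 of 14 positive, and -0.15, with 10 of 14 negative.

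Other class II genes were highest in ERalphaKO libraries. H2-Oa and H2-Ob encode DO, an inhibitor of DM found mainly in B cells, H2-DMb2 is the second DM beta chain and H2-Eb2 a further beta chain gene. H2-Oa and H2-Eb2 are given in addition to the most expressed of the list. H2-Ob measured 0.18 and 0.92 CPM in WT placebo, 1.20, 0.42 and 0.41 CPM in WT E2, 9.75, 8.89, 3.52 and 6.27 CPM in ERalphaKO placebo, and 4.58, 0.42 and 2.25 CPM in ERalphaKO E2. Among ERalphaKO placebo libraries replicate 3, high in Cd74, was the lowest in H2-Ob. H2-DMb2 held 0.06 and 0.04 CPM in WT placebo and 1.56, 0.50, 0.85 and 0.32 CPM in ERalphaKO placebo. H2-Oa, H2-DMb2 and H2-Eb2 passed the low-count filter only through ERalphaKO placebo, where they are high, so their values are a description. H2-Ob reached the filter's 0.511 CPM in 4 libraries of the other groups as well. Pooled counts for H2-Ob were 607 in ERalphaKO placebo and 28 in WT placebo, a depth-adjusted ratio of 10.7 with a 95% counting interval of 7.35 to 16.3. This interval, computed by an exact method, covers counting error only and not the spread between libraries. In the same order, pooled counts were 67 and 2 for H2-DMb2, 65 and 2 for H2-Oa, and 39 and 1 for H2-Eb2. These counts come from 4 and 2 libraries and are not adjusted for depth. H2-Ob did not pass in edgeR, where it stood at 3.61 ± 0.93 on the log2 scale (adjusted p = 0.343). DESeq2 called it (adjusted p = 0.00188), and so did the authors' deposited table (adjusted p = 1.47e-07).

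Markers of B cells were high in the same group. The summed level of 7 B cell markers, among them Ms4a1 and Cd79a, was 2.40 to 7.53 CPM in the 5 WT libraries, 55.2 to 209 CPM in ERalphaKO placebo and 5.36 to 117 CPM in ERalphaKO E2. Ms4a1, Fcrla and Vpreb3 did not reach the filter's 0.511 CPM in any WT library and were tested through the ERalphaKO libraries alone, so no count of called markers is given. Within ERalphaKO placebo the sum was lowest in replicate 3, at 55.2 CPM, where the 7 class II members summed to 595 CPM, against 336 to 348 CPM in the other replicates. The part of B cells in the class II difference under placebo was not tested.

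The summed 12 macrophage markers were 1174 and 888 CPM in WT placebo, 1518, 1058 and 1508 CPM in WT E2, 2736 CPM in ERalphaKO placebo replicate 3 and 1905 CPM in ERalphaKO E2 replicate 1. Lyz2, which granulocytes also express, gave 1864 and 1098 CPM of the last 2 sums. The other ERalphaKO libraries summed to 1014, 1080 and 1119 CPM under placebo and to 903 and 1120 CPM under E2. By mean log2 CPM of the 12 markers, ERalphaKO placebo replicate 3, at 5.90, lay below WT E2 replicates 1 and 3, at 6.19 and 6.26. WT E2 replicates 1 and 3 had nearly the same macrophage sum, while their 7 class II genes summed to 359.8 and 946 CPM. For E2 in WT, 7 of the 12 macrophage markers did not overlap and were higher (13.2% of all genes), edgeR called none, 7 reached an unadjusted p under 0.05 (8.14% of all genes) and 4 were called by DESeq2 (1.7%). Under E2, ERalphaKO minus WT was negative in 10 of the 12 (50.8% of all genes), and 6 were lower without overlap (8.94%). There edgeR called none (lowest adjusted p 0.0556), 7 had an unadjusted edgeR p under 0.05 (11.5% of all genes) and DESeq2 called 5 (3.35%). The 5 general leukocyte markers summed to 866 CPM in ERalphaKO placebo replicate 3, 692 CPM in ERalphaKO E2 replicate 1 and 397 CPM in WT E2 replicate 3, and to 189 to 372 CPM elsewhere. The 10 dendritic cell markers summed to 46.1 CPM in WT E2 replicate 3, 35.7 and 24.2 CPM in the other WT E2 libraries and 48.0 CPM in ERalphaKO placebo replicate 3. Their highest sums, 54.5 and 53.4 CPM, were in ERalphaKO E2 replicate 1 and ERalphaKO placebo replicate 1, whose class II genes summed to 395 and 336 CPM. Irf8 alone gave 25.4 and 29.3 CPM of these 2 dendritic cell sums. Granulocyte markers, 7 measured, summed to 15200.0 CPM in ERalphaKO placebo replicate 3 and 1025 CPM in WT E2 replicate 3, but to 4.01 and 2.45 CPM in the other WT E2 libraries and 6029 CPM in ERalphaKO E2 replicate 1. Skeletal muscle markers reached 4268 CPM in ERalphaKO placebo replicate 3 and 142 CPM in WT E2 replicate 3. T cell markers, 7 in number, summed to 9.71 to 19.2 CPM in every library. Most of each sum was Cd4, at 8.72 to 16.6 CPM, while Cd3e, Cd3d and Cd3g averaged 0.099, 0.17 and 0.15 CPM. No defining marker of any list measured was at 0 in all 12 libraries. The part of these cells in the class II levels was not tested.

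Set against markers within the same library, WT E2 replicate 3 remained the highest, by a margin that depended on the markers used. Cd74 counts per count of Ptprc, the pan-leukocyte gene CD45, were 6.41 there and 0.934 to 3.30 in the other 11 libraries. In ERalphaKO placebo replicate 3 the same ratio was 1.65, the lowest of its group, where the others ran to 2.36. The mean log2 CPM of the 7 genes minus that of macrophage markers was -0.23 in WT E2 replicate 3 and -1.42 and -1.67 in the other WT E2 libraries. It was -1.06 and -1.04 in WT placebo, -0.68 to -0.36 in ERalphaKO placebo and -0.95 to -0.74 in ERalphaKO E2. The nearest library was ERalphaKO placebo replicate 3, at -0.36, so the margin of WT E2 replicate 3 on these markers was small. Against the general leukocyte markers the margin was small too. With those, the difference was 0.24 in WT E2 replicate 3, 0.091 in ERalphaKO E2 replicate 2 and -0.14 in WT placebo replicate 2. In the other libraries it was at most -0.48.

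**Figure D3:**
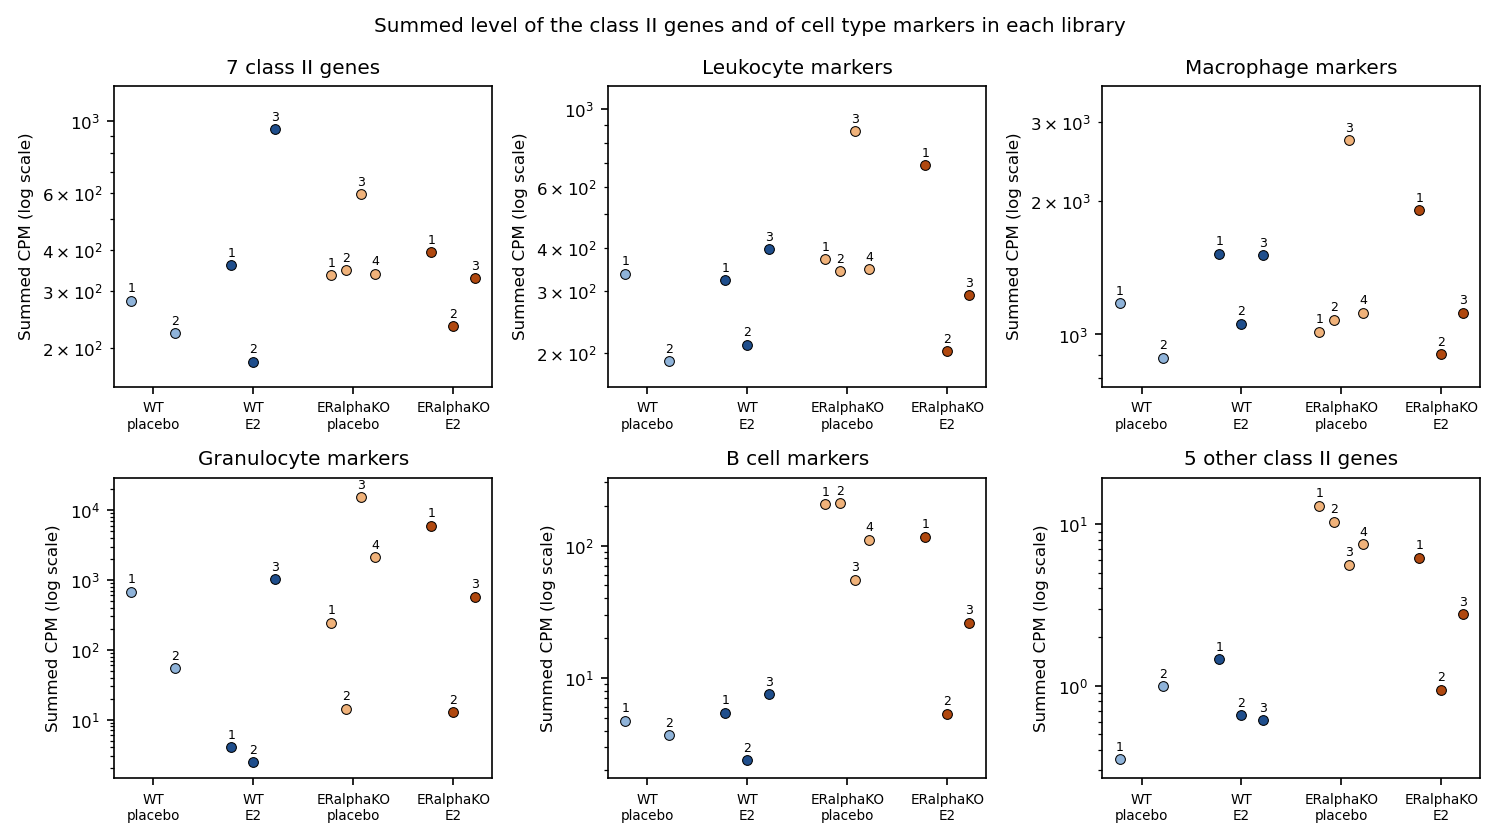
Summed CPM per library for the 7 class II genes, 5 other class II genes and 4 marker lists of immune cells, on log axes by group, each point a library with its replicate number. B cell markers and the other class II genes are higher in ERalphaKO placebo than in any WT library, whereas the 7 class II genes peak in WT E2 replicate 3.

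The genes whose log2 CPM over the 12 libraries was most like the mean of the 7 were sought among the 14825 other genes tested. The closest was Gbp5, an interferon-induced GTPase (Pearson's r 0.96, Spearman's rho 0.94). It was followed by Psmb8 (r 0.93), a subunit of the immunoproteasome, Npm1 (0.93), the peptide transporter gene Tap1 (0.93), Gngt2 (0.91), Slfn8 (0.91), the peptide-trimming Erap1 (0.91), Psmb10 (0.91), another immunoproteasome subunit, Parp10 (0.90) and the interferon-induced Iigp1 (0.90). Of these 10, 4 belong to the class I list of 14 genes. Npm1 has many processed copies and Slfn8 close relatives, so their counts are uncertain. In the 10 libraries left without WT E2 replicate 3 and ERalphaKO placebo replicate 3, r of the 10 genes ran from 0.58 for Iigp1 to 0.90 for Gbp5. Ptprc gave r of 0.64 and rho of 0.86. Gbp5 averaged 1.71 CPM in WT placebo, 3.12 in WT E2, 2.96 in ERalphaKO placebo and 2.14 in ERalphaKO E2.

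**Figure D4:**
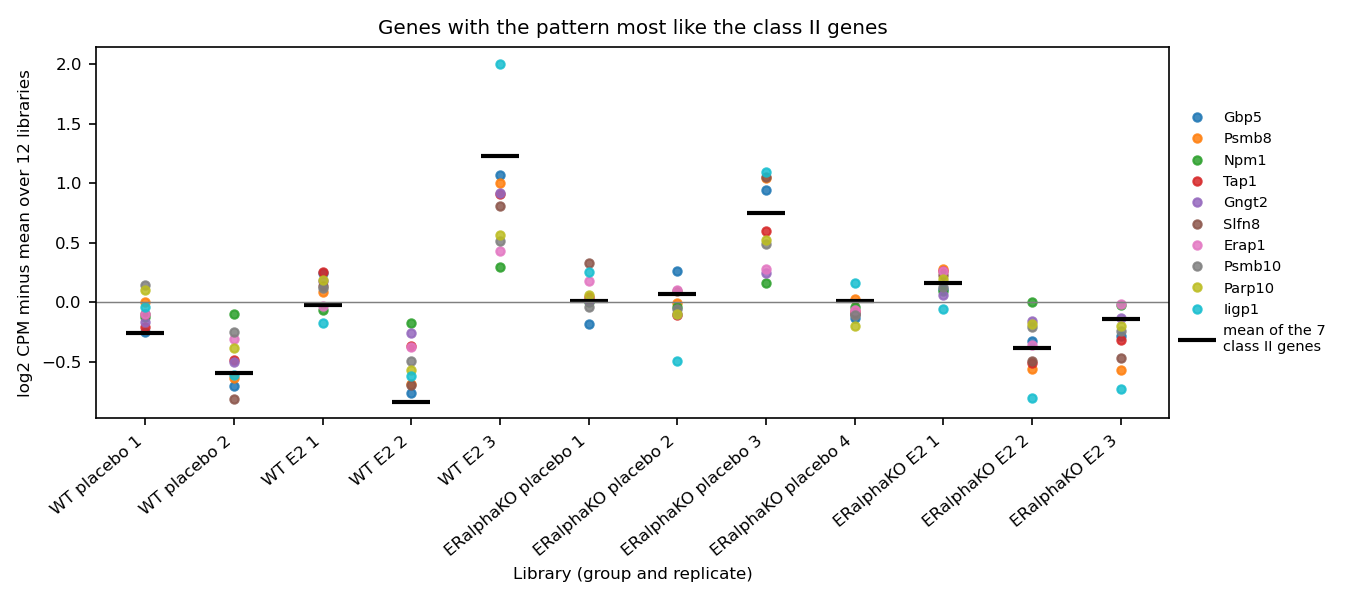
Log2 CPM minus its mean over the 12 libraries, by library, for the 10 most similar genes (coloured points) and for the mean of the 7 class II genes (black bars). All 10 genes are above their means in WT E2 replicate 3 and ERalphaKO placebo replicate 3, and Gbp5 has the highest r, 0.96.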

How the data were processed

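RNA of 12 libraries was sequenced by the submitters. The submitters' processing notes name bcl2fastq 2.17, TopHat and build mm9. The counter, annotation, strand and handling of reads with several matches are not given in the sources used here. Deposited by the authors were raw counts per gene symbol, a table of size-factor normalized signal, and 6 comparison tables in DESeq2's column layout with log2 fold changes, a Wald score and p-values. Only the raw counts were fitted, and the score and signal columns were not used. In edgeR 4.0.16 (R 4.3.3), 14832 genes passed filterByExpr with a minimum count of 10. Library sizes were scaled by TMM. The quasi-likelihood model had 1 mean per group and 8 residual degrees of freedom (biological coefficient of variation 25.9%), with Benjamini-Hochberg adjustment over all genes tested and a threshold of 0.05. Each SE was derived from the fold change and its F statistic. Log2 CPM used a prior count of 2. DESeq2 1.42.0, other scalings, no filter, fits of the compared groups alone, a replicate block and omitted libraries were alternatives. The fit was tested on simulated data. Counting error is largest for Ciita, with 29 to 138 counts a library.

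The members and gene lists were chosen with earlier results of these data known. Named were the 7 members, list genes past the threshold (up to 4 a list) or else the 2 most expressed, and the 10 genes most correlated with the members' mean, predicted genes left out. Gene coordinates, transcript lengths and promoters come from GRCm38 and not from the authors' build, and of the list genes Sppl2a and Ly6g were not analysed here. Another gene of the lists is not reported here and is left out of the sums and counts.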

Additional observations from a re-analysis of the deposited data

Results flagged for a closer look

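Within the 4 ERalphaKO placebo libraries, the gap between the farthest library and its nearest neighbour was compared with the whole range of CPM. A library was singled out where this share passed Dixon's 95% critical value for 4 samples. Replicate 3 was singled out as the highest for H2-Aa (share 0.896), H2-Eb1 (0.906) and Cd74 (0.841). H2-Aa, for example, held 124 CPM there and 59.9 to 66.6 CPM in the other replicates. For H2-Oa, an alpha chain of DO, replicate 1 was singled out as the highest (0.939), at 1.08 CPM against 0.63 to 0.66 CPM. Its counts were 18 there and 14, 17 and 16 in the other replicates. At counts this low the gap cannot be told from counting error. H2-Oa also passed the low-count filter only through this group, so nothing is drawn from its flag. In all, 11 genes were examined, and chance singles out about 1 in 20 groups. The 3 genes in replicate 3 rise and fall together, so they are not separate cases. The groups of 3 libraries, WT E2 with its replicate 3 among them, were not examined in this way.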

How the results depend on the processing

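No class II member passed the threshold in any comparison under any of the 20 alternatives, and the lowest adjusted p was 0.227 (Cd74, E2 in WT, without WT E2 replicate 2). Of 693 recomputed member fold changes, 657 kept their sign and 36 reversed it. Leaving out 1 library in turn, the values that reversed ran as follows on the log2 scale. For E2 in WT they ran from -0.088 to 0.32 in H2-DMb1 and from -0.22 to 0.86 in Ciita. For E2 in ERalphaKO they ran from -0.56 to 0.0014 in H2-Aa and from -0.091 to 0.030 in H2-DMb1. For genotype under placebo H2-DMb1 ran from -0.047 to 0.088, and for the difference of the E2 effects from -0.36 to 0.045. For genotype under E2 the ranges were -0.97 to 0.49 (H2-Aa), -0.79 to 0.20 (H2-Ab1), -1.16 to 0.38 (H2-Eb1), -1.06 to 0.029 (H2-DMa), -0.34 to 0.072 (H2-DMb1), -1.24 to 0.13 (Cd74) and -0.31 to 0.64 (Ciita). Without both WT E2 replicate 3 and ERalphaKO placebo replicate 3, chosen after seeing the data, genotype under E2 gave 0.51, 0.22, 0.40, 0.045, 0.086, 0.15 and 0.66 in the same order. E2 in WT then gave -0.090 in H2-DMb1 and -0.23 in Ciita, E2 in ERalphaKO 0.0059 in H2-Aa and 0.034 in H2-DMb1, genotype under placebo -0.038 in H2-DMb1, and the difference of the E2 effects 0.12 in H2-DMb1. Without ERalphaKO placebo replicate 3 and ERalphaKO E2 replicate 1, genotype under placebo was -0.038 in H2-DMb1. Ciita, genotype under E2, was 0.00751 with DESeq2 size factors, 0.00135 with upper-quartile scaling, 0.00725 in DESeq2 and 0.00104 with the compared groups alone. Fewer libraries were used in the omissions, and otherwise the cause was not tested.

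The labels do not say that replicate numbers pair libraries, and 9 of 15 same-numbered pairs deviated together with r over 0.1 (range -0.33 to 0.50). Their median r was 0.20, against -0.034 for other pairs, and since not every pair passed 0.1 the numbers were not used as a pairing. With the replicate number as a block, 0 members passed, Ciita turned to 0.13 (genotype under E2) and H2-DMb1 to -0.055 (genotype under placebo), and the member median for E2 in WT was 0.35. In DESeq2, Nlrc5, Cd86 and Jak1 had adjusted p of 6.5e-06, 1.73e-04 and 4.87e-05. Genes called over the alternatives numbered 1 to 247 for E2 in WT, 0 to 5 for E2 in ERalphaKO, 0 to 150 for genotype under placebo, 51 to 497 for genotype under E2 and 0 to 102 for the difference of the E2 effects.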
